A study of Mus musculus with 20 samples.

Results

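The nucleus pulposus (NP), the gel-like core of the intervertebral disc, was compared with the annulus fibrosus (AF), the lamellar ring around it, in wild-type (WT) mice. The arrays were taken by their labels: 5 NP and 5 AF arrays of the same 5 WT animals (numbered 32, 33, 53, 55 and 59), 10 of the 20 arrays of the series, and the 2 tissues of an animal were treated as a pair. The animals were 13 weeks old, the WT littermates of ank/ank mutants, from heterozygotes of the strain C3FeB6 A/Aw-J-Ankank/J, with animals 32 and 59 male and 33, 53 and 55 female. Caudal and lumbar discs were dissected according to the labels, while the study's methods name caudal discs only, and the tissue of an animal was pooled, so that 1 array stood for many discs of 1 mouse. The other 10 arrays held NP and AF of 5 ank mice, which carry a loss-of-function mutation in the progressive ankylosis gene in all tissues.

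In the mouse, NP cells descend from the notochord and keep an epithelial-like character, with keratins, desmosomes and galectin-3, in a hydrated aggrecan-rich matrix without blood vessels, where they live mainly by glycolysis and use hypoxia-inducible factor (HIF) signalling. AF cells descend from the sclerotome and build layered type I collagen fibrils, with type II collagen toward the inside, to which small leucine-rich proteoglycans and cartilage oligomeric matrix protein bind. In a bulk tissue sample a lower signal can come from fewer cells of a type or from less RNA per cell, and these cannot be told apart.

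Each value is a log2 signal of 1 gene on a Clariom S array, so that a difference of 1 is a 2-fold change of signal, and a gene counted as above background when it exceeded the 95th percentile of 1425 sensory receptor genes on that array. The tissues differed across the whole array, as the plot of array-wide measures shows. NP arrays had 4723 to 7263 genes above background and AF arrays 2831 to 6362, with the NP array higher in 4 of 5 animals (mean difference 2443.6, exact paired permutation test, two-sided p = 0.125). The median over all genes was 6.10 to 6.23 in NP and 5.75 to 5.89 in AF, higher in NP in 5 of 5 animals (exact p = 0.063, the smallest that 5 pairs allow). Positive and negative control probe sets were separated with an area under the curve (AUC) of 0.725 to 0.789 in NP and 0.607 to 0.763 in AF. The value of 0.763 was that of animal 33, and the other AF arrays lay at 0.607 to 0.663, below all NP arrays. NP arrays correlated with each other by 0.932 to 0.975 across genes and AF arrays by 0.749 to 0.900. Whether both tissues were normalized in 1 run is not given in the sources used here, so a change of overall level, an effect of array quality and the tissue itself cannot be told apart, and calls rest on the values as deposited and after quantile normalization over the 10 arrays. Signal of bacterial control RNAs was present in the NP arrays of animals 32, 33 and 53 and the AF arrays of animals 32 and 33 and near absent in the other 5, which split the arrays into 2 sets not named in the labels.

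**Figure D1:**
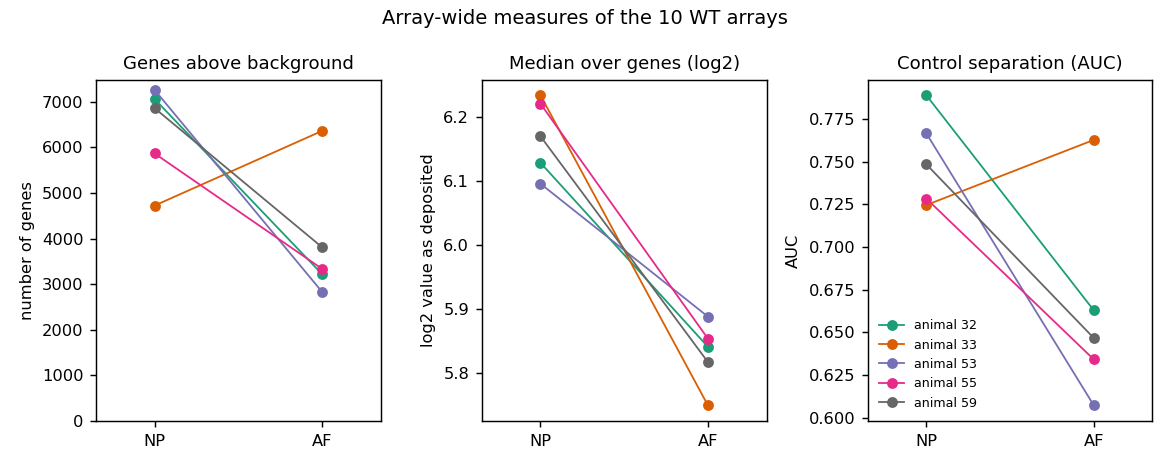
Genes above background (left), median log2 value over all genes (middle) and AUC of the control probe sets (right) for NP and AF of each WT animal, joined by a line. AF of animal 33 had 6362 genes above background, against 2831 to 3811 in the other AF arrays, while the median over genes was higher in NP in all 5 animals.

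The AF array of animal 33 stood apart from the other 4. Acta1, the actin of skeletal muscle, read 5.16 to 6.94 in NP, 18.23 in AF of animal 33 and 5.77 to 8.89 in the other AF arrays. Of 25 skeletal muscle genes measured, 4 were above background in any NP array, 23 in AF of animal 33 and 8 in any other AF array. Osteoblast and hypertrophic chondrocyte genes (mean level 12.3, against 5.84 to 6.48 in the other AF arrays) and macrophage and osteoclast genes (9.28, against 5.22 to 5.56) were also high there. The genes of NP cells were low: Krt19 read 4.24, against 10.46 to 12.68 in the other AF arrays. Results are therefore also given without animal 33, and the part of muscle and bone RNA in the results was not tested.

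Of 19505 genes with a single symbol, 5451 were above background in at least 5 of the 10 arrays and were tested with limma, the animal being a block. As deposited, 3463 genes were higher in NP (63.5% of those tested) and 85 lower (1.56%) at an adjusted p under 0.05, with a median difference over all tested genes of 1.50. After quantile normalization the median difference was 0.27, and 874 genes were higher (16.0%) and 399 lower (7.32%). The share of calls that were higher in NP was thus 97.6% as deposited and 68.7% after quantile normalization. A gene was called only if it passed on both scales with the same sign, which left 959 genes (17.6%): 874 higher in NP (16.0%) and 85 lower (1.56%). The number of higher genes was set by the quantile normalized values, since a further 2589 genes passed only as deposited, and the number of lower genes by the deposited values, since a further 314 passed only after quantile normalization. With each array centred on its own median the share of calls that were higher was 95.6%, and with the call on both scales 91.1%. No gene passed in opposite directions on the 2 scales. The background filter could be met by the 5 arrays of 1 tissue alone. Of the 874 higher genes, 150 were below background in all AF arrays and 347 were above it in most AF arrays. Of the 85 lower genes, 7 were below background in all NP arrays and 45 were above it in most NP arrays.

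NP and AF values did not overlap as deposited for 2474 of the genes tested (45.4%), of which 48 were lower in NP, and for 870 of the 959 called. Without animal 33, 1165 genes were higher (21.4%) and 154 lower (2.83%), among them 833 of the 874 and 81 of the 85. Leaving out another animal gave fewer calls, with 272 higher and 50 lower without animal 32, 512 and 78 without animal 53, 480 and 54 without animal 55 and 503 and 64 without animal 59. Within the arrays with bacterial control signal 458 genes were higher and 67 lower, and within those without it 67 and 58 in unpaired fits of fewer arrays. The median difference as deposited was 0.81 in animal 33 and 1.36 to 2.30 in the other 4 animals.

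**Figure D2:**
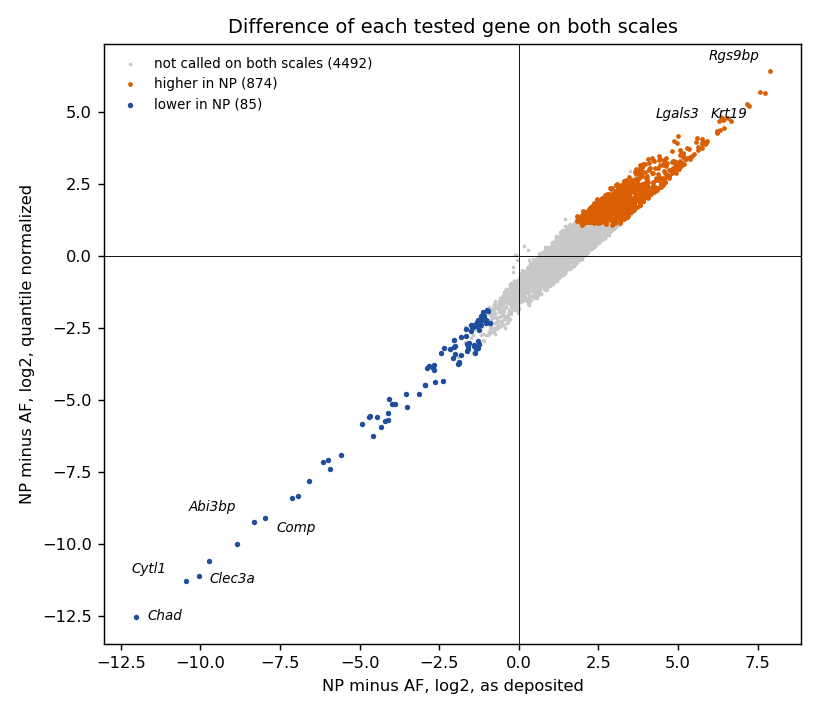
NP minus AF difference of each of the 5451 tested genes (points), in log2 units, as deposited (x axis) and after quantile normalization (y axis), coloured by the call on both scales. Of the points 90.1% lie above 0 on the x axis and 60.2% above 0 on the y axis, and the named points at the 2 ends are Chad (-12.02 as deposited) and Rgs9bp (7.88), each with 2 of 5 arrays above background in its lower tissue.

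The 7 genes that mark the tissues differed in the direction of the tissue labels in all 5 animals. Krt19, a keratin of NP cells, read 18.00, 17.55, 18.08, 18.06 and 17.94 in NP of animals 32, 33, 53, 55 and 59, against 10.46, 4.24, 11.26, 12.41 and 12.68 in AF in the same order. The NP arrays were nearly equal while the AF arrays spanned over 8 log2 units, and the tissues did not overlap. The difference was 7.72 ± 0.94 (SE, limma adjusted p = 0.00013) as deposited and 5.66 ± 1.08 (adjusted p = 0.0059) after quantile normalization. It was 10.53 within the arrays with bacterial control signal, 5.88 within those without it and 6.32 without animal 33, as deposited. Lgals3, which encodes galectin-3, read 19.45, 18.25, 18.95, 18.68 and 18.76 in NP, against 13.34, 8.77, 12.22, 12.21 and 14.76 in AF. Cd24a, a surface glycoprotein used to sort NP cells, read 19.34, 18.94, 19.53, 19.63 and 19.71 in NP, against 12.98, 10.13, 15.95, 15.99 and 18.05 in AF. In both, AF of animal 33 was the lowest and AF of animal 59 the highest AF value, still below all NP arrays. The differences were 6.56 as deposited, 4.77 quantile normalized for Lgals3 (adjusted p = 6.5e-05 and 0.0023) and 4.81 as deposited, 3.64 quantile normalized for Cd24a (adjusted p = 0.00072 and 0.015). In NP of animals 55 and 59 the Cd24a values, 19.63 and 19.71, were the highest values of those arrays, so its measured difference is a bound.

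The AF markers ran the other way. Chad, which encodes the collagen-binding protein chondroadherin, read 10.46, 5.59, 5.88, 7.43 and 6.41 in NP, against 19.16, 19.14, 18.83, 19.50 and 19.22 in AF. The AF arrays lay within 1 log2 unit of each other, and of the NP arrays 2, among them that of animal 32, were above background. The difference was -12.02 ± 0.63 (SE, limma adjusted p = 1.0e-06) as deposited and -12.53 ± 0.55 (adjusted p = 1.0e-07) after quantile normalization, the largest of all tested genes as deposited, and -11.63 without animal 33. Cytl1, a secreted protein known from cartilage, read 8.53, 6.6, 9.53, 9.12 and 7.97 in NP, against 17.76, 19.39, 18.41, 19.64 and 18.80 in AF (-10.45 as deposited, -11.28 quantile normalized). Comp, the pentameric protein that bridges collagen fibrils, read 8.58, 5.82, 5.61, 6.48 and 5.70 in NP, against 15.35, 15.49, 12.21, 14.53 and 14.40 in AF (-7.96 as deposited, -9.11 quantile normalized). For both genes the lowest AF value was far above the highest NP value. Dcn, which encodes decorin, read 13.78, 7.45, 6.27, 9.82 and 6.19 in NP, against 19.93, 19.93, 13.64, 19.67 and 18.99 in AF, and here the tissues overlapped, since NP of animal 32 was higher than AF of animal 53. Its difference was -9.73 ± 0.87 (SE, limma adjusted p = 4.4e-05) as deposited and -10.61 ± 0.73 (adjusted p = 9.0e-06) after quantile normalization. The Dcn value of 19.93 in AF of animals 32 and 33 lay at the ceiling, so the measured difference is a bound. NP of animal 32 was the highest NP array for Chad, Comp and Dcn alike.

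**Figure D3:**
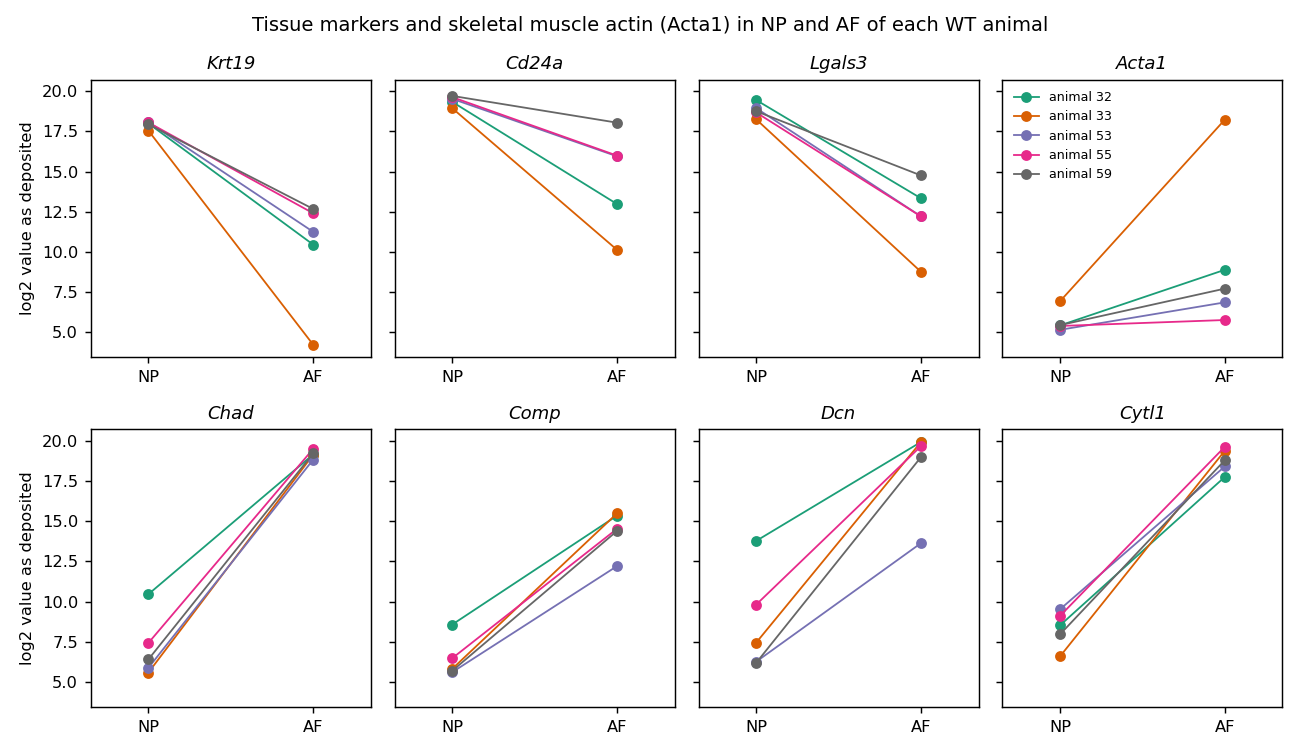
Log2 values as deposited of the NP markers Krt19, Cd24a and Lgals3, the AF markers Chad, Comp, Dcn and Cytl1, and skeletal muscle actin Acta1 in NP (left) and AF (right) of each WT animal, joined by a line. Krt19 lay at 17.55 to 18.08 in all NP arrays, and AF of animal 33 was the lowest for the 3 NP markers and the highest for Acta1 (18.23).

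The 12 largest differences toward NP, among called genes without overlap, were those of Rgs9bp, Krt19, Tmem255a, Slc15a5, Ndnf, Zim1, Lgals3, Cited2, Gpc3, Ndrg1, Ppp1r3c and Angptl1. Rgs9bp, known as the membrane anchor of the G-protein regulator RGS9 in photoreceptors, read 14.49, 15.20, 14.92, 12.93 and 13.72 in NP, against 6.62, 3.70, 7.62, 6.4 and 7.52 in AF, where 2 of 5 arrays were above background. Its difference was 7.88 ± 0.67 (SE, limma adjusted p = 3.0e-05) as deposited and 6.4 ± 0.75 (adjusted p = 0.00048) after quantile normalization. As for Chad in NP, such a difference is taken against values that lie mostly at background. Ndnf, a secreted factor first described in neurons, read 18.18, 18.03, 16.97, 17.75 and 18.01 in NP, against 11.84, 9.46, 9.01, 10.53 and 12.29 in AF, with 7.16 ± 0.48 (SE, limma adjusted p = 7.4e-06) as deposited and 5.28 ± 0.55 (adjusted p = 0.00022) after quantile normalization. Ndnf had the smallest adjusted p of the 12 as deposited, and its AF values were high in animals 32 and 59 and low in 33 and 53.

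Cited2, a coregulator that competes with HIF-1α for its coactivators, read 19.33, 18.82, 19.14, 19.19 and 18.73 in NP, against 12.47, 12.12, 11.18, 14.26 and 12.91 in AF. All NP arrays lay above 18 and all AF arrays below 15, and the difference was 6.45 as deposited, 4.74 quantile normalized. Ppp1r3c, which targets protein phosphatase 1 to glycogen, read 19.56, 18.96, 19.61, 18.98 and 19.62 in NP, against 12.96, 8.07, 13.78, 15.04 and 15.13 in AF (6.35 as deposited, 4.81 quantile normalized). Slc15a5, of the peptide transporter family, ranged over 17.12 to 18.32 in NP and 5.27 to 12.78 in AF (7.24 as deposited, 5.18 quantile normalized), and Tmem255a, which encodes a membrane protein, over 18.07 to 19.25 in NP and 4.58 to 14.53 in AF (7.56 as deposited, 5.69 quantile normalized). Gpc3, the cell-surface heparan sulfate proteoglycan glypican-3, was 16.88 ± 0.26 in NP and 10.44 ± 2.89 in AF (SD, n = 5 each). Angptl1, a secreted angiopoietin-like protein, was 16.76 ± 0.31 in NP and 10.44 ± 2.33 in AF, and Zim1, an imprinted zinc-finger gene, was 16.40 ± 1.24 in NP and 9.74 ± 2.69 in AF. For 9 of the 12, all but Ndnf, Cited2 and Ndrg1, the lowest AF value was that of animal 33, and their differences without that animal were smaller, 6.32 for Krt19 and 6.08 for Tmem255a as deposited, and all 12 stayed called.

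The 12 largest differences toward AF, again among called genes without overlap, were those of Chad, Cytl1, Clec3a, Prg4, Abi3bp, Comp, Vcan, Angptl7, Ecm2, Cnmd, Frzb and Sod3, most of them genes of secreted matrix proteins. Dcn (-9.73), Col1a2 (-6.94) and Ibsp (-5.59) differed more than some of these as deposited and were left out since their tissues overlapped. Clec3a, a C-type lectin of cartilage, read 8.61, 5.37, 5.94, 6.75 and 4.98 in NP, against 17.87, 15.43, 16.09, 16.74 and 15.76 in AF, and had the smallest adjusted p of all tested genes as deposited, with -10.05 ± 0.39 (SE, limma adjusted p = 1.2e-07) as deposited and -11.12 ± 0.41 (adjusted p = 6.7e-08) after quantile normalization. Prg4, which encodes the lubricant lubricin, read 10.84, 7.29, 6.84, 5.91 and 6.70 in NP, against 19.51, 15.83, 12.98, 16.76 and 16.76 in AF (-8.85 as deposited, -10.00 quantile normalized). NP of animal 32 was the highest NP array for both genes, and AF of animal 32 the highest AF array. Abi3bp, a collagen-binding matrix protein, was above background in all 10 arrays and read 11.57, 9.63, 10.58, 10.15 and 10.78 in NP, against 19.45, 17.21, 18.10, 19.90 and 19.69 in AF (-8.33 as deposited, -9.23 quantile normalized).

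Vcan, the large proteoglycan versican, ranged over 6.35 to 9.88 in NP and 10.26 to 17.55 in AF (-7.13 as deposited, -8.43 quantile normalized), with its lowest AF value in animal 33. Cnmd, which encodes the cartilage angiogenesis inhibitor chondromodulin, was 6.08 ± 1.33 in NP and 12.07 ± 3.22 in AF, and here AF of animal 33 was the highest (17.15). Angptl7, a secreted angiopoietin-like protein, was 6.71 ± 0.38 in NP and 13.31 ± 2.02 in AF, and Frzb, a secreted Wnt antagonist, was 7.95 ± 1.16 in NP and 13.89 ± 2.46 in AF. Ecm2, a leucine-rich matrix protein, and Sod3, the extracellular superoxide dismutase, were below background in all NP arrays and above it in all AF arrays. With the background level standing in for NP, Ecm2 was at least 17.5-fold and Sod3 at least 3.58-fold higher in AF than in NP as deposited. All 12 stayed called without animal 33.

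**Figure D4:**
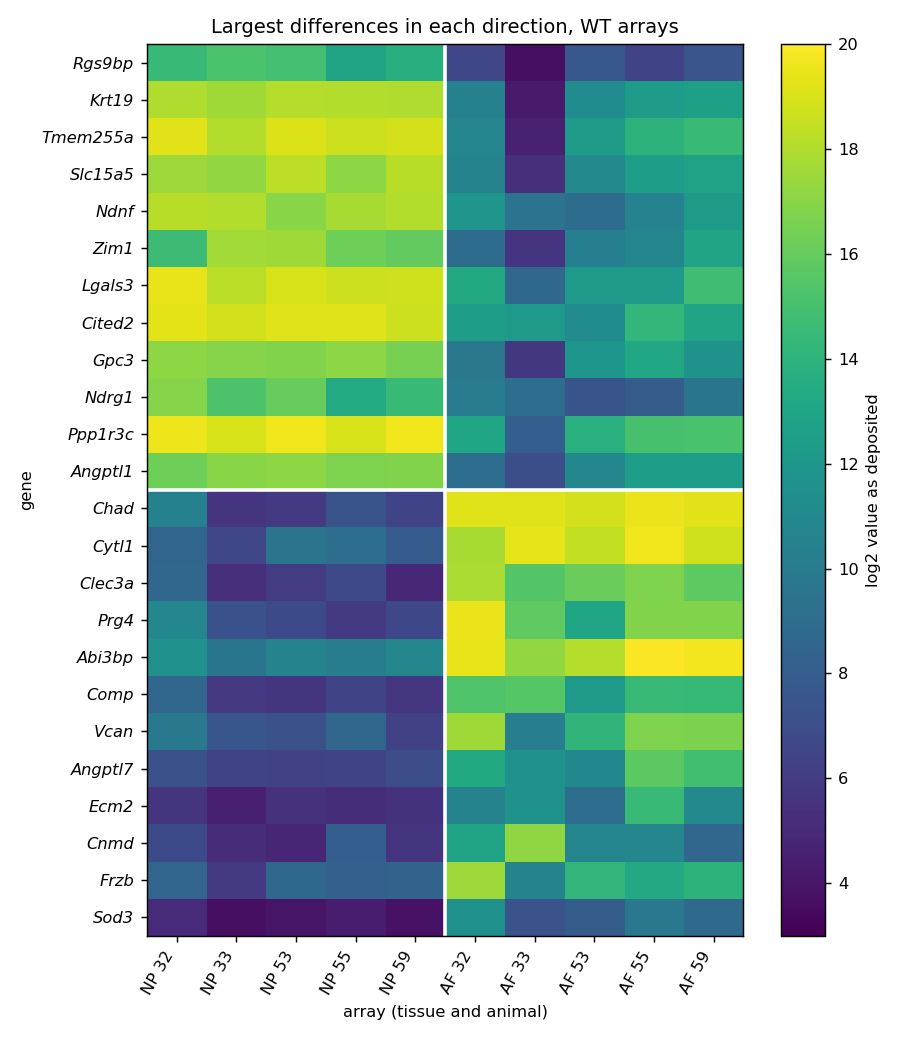
Log2 values as deposited (colour) of the 12 called genes without overlap that had the largest differences toward NP (upper rows) and toward AF (lower rows) in the 5 NP arrays (left) and the 5 AF arrays (right) of the WT animals. The AF array of animal 33 is the darkest AF column in 9 of the 12 upper rows, for example 4.24 for Krt19, while all NP values in those rows are above 12.

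For 15 of these 24 genes RefSeq (GRCm38.p6) gave a promoter window of 250 bases before to 50 after the transcription start. The windows of the 2 genes with the largest differences per direction that had one (Tmem255a and Slc15a5 toward NP, Chad and Cytl1 toward AF) were searched, on both strands, for 7 motifs of factors known in the notochord, in AF and tendon or in hypoxia: AGGTGTGA (T-box), TGTTTAC (forkhead), ACAATGG (SOX), TGGGTGGTC (GLI), CATCTG (a scleraxis-type E-box), TGACTCA (AP-1) and ACGTG (hypoxia core). None of the 7 contains another. Slc15a5 held the E-box letters and Chad the hypoxia core, in capitals below, each as the reverse complement of the letters searched. These 2 windows are shown since they hold a match, 5′ to 3′ on the strand of the gene. Tmem255a and Cytl1 held none of the 7.
Slc15a5, chr6:138079867-138080166, minus strand: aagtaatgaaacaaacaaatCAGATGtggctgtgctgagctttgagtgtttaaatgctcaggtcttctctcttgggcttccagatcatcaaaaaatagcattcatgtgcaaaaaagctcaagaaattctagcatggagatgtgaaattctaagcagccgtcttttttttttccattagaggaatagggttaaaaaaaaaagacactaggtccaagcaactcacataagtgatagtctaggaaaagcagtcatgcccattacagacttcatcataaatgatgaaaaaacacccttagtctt
Chad, chr11:94564797-94565096, plus strand: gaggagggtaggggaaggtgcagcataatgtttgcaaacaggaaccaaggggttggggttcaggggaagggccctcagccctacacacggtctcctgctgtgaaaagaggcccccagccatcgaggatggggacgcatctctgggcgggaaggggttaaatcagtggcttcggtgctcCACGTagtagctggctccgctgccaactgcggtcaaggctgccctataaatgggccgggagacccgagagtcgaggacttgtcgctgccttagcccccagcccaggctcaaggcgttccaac
Both letter groups are common. The hypoxia core was in 27.3% of 697 windows of genes called higher in NP, in 23.1% of 65 windows of genes called lower and in 19.7% of all 27025 windows, with 27.3% among the genes tested. The E-box letters were in 11.5% of the windows of higher genes, 16.9% of those of lower genes, 10.6% of those of tested genes and 17.2% of all windows. The T-box letters were in 1.15% of the windows of higher genes, in 0 of 65 of lower genes, in 0.672% of tested genes and in 1.27% of all windows. The SOX letters were in 1.29% of higher, 4.62% of lower (3 windows), 1.82% of tested and 3.71% of all windows. A match of letters is a description and shows no binding.

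Gene groups were then described by how many of their tested members were called on both scales, against 16.0% higher and 1.56% lower over all tested genes, and by their median difference, against 1.50 as deposited and 0.27 quantile normalized over all tested genes. A list drawn up for NP cells held mostly surface proteins and keratins, with some carbonic anhydrases and the transcription factors Pax1 and Foxf1. Of its 11 tested genes 4 were higher in NP, namely Krt8, Krt19, Cd24a and Lgals3, with a median of 3.19 as deposited and 1.43 quantile normalized. Of the 8 members of that list not tested, Pax1, Foxf1 and Car12, all named after their values were seen, had the higher mean in AF. Pax1 (4.23 ± 0.28 in NP and 8.04 ± 0.82 in AF) was above background in 0 NP and 4 AF arrays. Foxf1 (4.41 ± 0.40 in NP and 5.91 ± 0.92 in AF) was above it in none. Car12 (4.49 ± 0.37 in NP and 5.77 ± 1.68 in AF) was above it in 0 NP and 1 AF array. Krt8, the partner of type I keratins in simple epithelia, was 14.11 ± 0.86 in NP and 9.39 ± 2.14 in AF (4.72 as deposited, 2.70 quantile normalized). Krt18, the usual partner of Krt8, named after its values were seen, passed as deposited and not after quantile normalization (3.19 as deposited, 1.52 quantile normalized). Car3, carbonic anhydrase 3, lay at or near the highest value of each array, which was 19.63 to 19.93, in both tissues (19.80 ± 0.13 in NP and 19.88 ± 0.08 in AF). A further list held factors of the notochord together with others not particular to it, such as Pax9, Nkx3-2 and the SOX factors. Of its 10 genes measured (9 transcription factors and the ligand Shh), 3 were tested and 1 was higher. That was Sox6, a SOX factor that acts with Sox9 in chondrogenesis (11.99 ± 0.36 in NP and 8.38 ± 0.96 in AF, 3.61 as deposited, 1.93 quantile normalized). Sox9 itself, named after its values were seen, was 16.27 ± 1.64 in NP and 14.35 ± 0.71 in AF and was called as deposited only. Foxa1, Foxa2 and Foxa3 were below background in all 10 arrays, and Noto, a notochord homeobox gene, was above it in 2 NP and 0 AF arrays. In the hedgehog pathway 1 of 5 tested genes was higher, Disp1, which releases hedgehog ligand from the cell (14.69 ± 0.58 in NP and 10.36 ± 1.79 in AF, 4.33 as deposited, 2.29 quantile normalized). Shh, the ligand that the notochord makes, was above background in 3 NP and 0 AF arrays and was not tested.

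**Figure D5:**
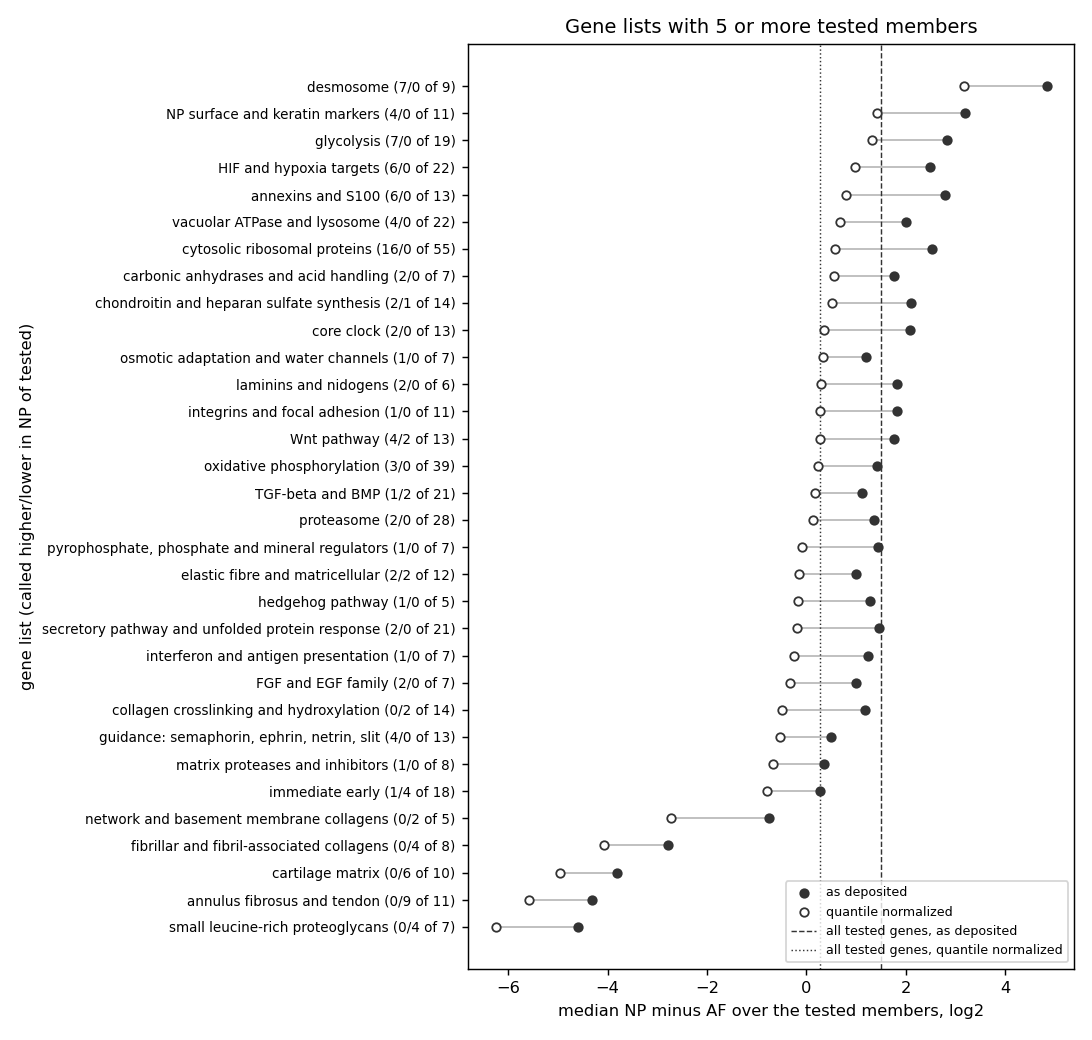
Median NP minus AF difference (log2 units) over the tested members of each gene list with 5 or more tested members, as deposited (filled) and quantile normalized (open), with the number called higher and lower in NP in parentheses. The vertical lines mark the medians over all tested genes, 1.50 (dashed) and 0.27 (dotted); desmosome genes lie furthest to the right and small leucine-rich proteoglycans furthest to the left.

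Desmosomes, the plaques that tie keratin filaments of neighbouring cells together, gave the group with the highest median. Of 9 desmosome genes tested 7 were higher in NP and none lower, with a median of 4.84 as deposited and 3.17 quantile normalized. Dsc3, a desmosomal cadherin, read 14.64, 14.59, 15.38, 14.22 and 14.17 in NP, against 8.86, 6.03, 9.52, 8.41 and 9.09 in AF, without overlap and with 6.22 ± 0.51 (SE, limma adjusted p = 2.6e-05) as deposited and 4.29 ± 0.62 (adjusted p = 0.0015) after quantile normalization. Dsc2, another cadherin, read 9.11, 9.06, 9.39, 8.99 and 9.20 in NP and was below background in all AF arrays, which makes it at least 3.34-fold higher in NP as deposited. The cadherin Dsg2 was 11.52 ± 0.84 in NP and 6.45 ± 1.34 in AF and the plaque protein Pkp1 12.92 ± 1.09 in NP and 8.07 ± 1.27 in AF. Dsp, Perp and Pkp2 were the other called members, and Pkp4 and Evpl were tested and not called. Without animal 33 the count was again 7, with a median of 4.48 and 2.87 on the 2 scales. Gja1, which encodes the gap junction protein connexin 43, was the single tested gene of its group and read 19.10, 18.98, 19.14, 19.24 and 19.11 in NP, against 13.06, 15.58, 14.24, 15.53 and 15.64 in AF (4.30 as deposited, 2.62 quantile normalized). The tight junction gene Tjp1 was the single tested gene of 26 measured and was not called on both scales (1.65 as deposited, 0.63 quantile normalized). Of 6 laminins and nidogens tested 2 were higher, Lamb3, a chain of the epithelial laminin-332 (11.89 ± 0.80 in NP and 6.79 ± 1.81 in AF), and Lama4 (11.96 ± 0.78 in NP and 8.84 ± 0.56 in AF).

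Of 13 annexins and S100 proteins, which bind membranes or partners in a calcium-dependent way, 6 were higher in NP and none lower (median 2.79 as deposited and 0.79 quantile normalized). Anxa1 was 15.84 ± 0.62 in NP and 11.79 ± 1.46 in AF, and Anxa4 was 13.61 ± 0.92 in NP and 10.29 ± 0.59 in AF. S100a11 was 13.53 ± 0.95 in NP and 10.15 ± 0.33 in AF, and Anxa3 was 10.25 ± 1.06 in NP and 6.62 ± 1.25 in AF. In each of these 4 the NP and AF values did not overlap, as in 870 of the 959 genes called. Of 11 integrin and focal adhesion genes 1 was higher, Ilk, the integrin-linked kinase (2.81 as deposited, 1.31 quantile normalized).

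Glycolysis, which turns glucose into lactate without oxygen, was covered by 21 genes. Of 19 tested 7 were higher in NP and none lower (Slc2a3, Hk2, Pfkl, Pfkfb3, Pgk1, Pgam1 and Slc16a3), and 17 were higher as deposited, with a median of 2.82 as deposited and 1.32 quantile normalized. Slc2a3, the high-affinity glucose transporter GLUT3, read 10.15, 10.41, 11.23, 10.03 and 8.55 in NP, against 5.42, 4.43, 5.83, 5.57 and 4.20 in AF. All AF arrays were below background, which makes Slc2a3 at least 6.33-fold higher in NP as deposited. Its limma adjusted p was 2.6e-05 as deposited and 6.8e-05 after quantile normalization. Pfkfb3, which makes the activator of phosphofructokinase, read 12.96, 12.17, 14.03, 13.00 and 13.86 in NP, against 8.72, 8.89, 8.86, 9.06 and 11.29 in AF, where animal 59 lay above the other 4. Pgk1, phosphoglycerate kinase, was 14.64 ± 0.32 in NP and 10.58 ± 1.05 in AF, and Pfkl, the liver-type phosphofructokinase, was 11.26 ± 0.59 in NP and 8.18 ± 0.47 in AF.

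Of 22 HIF and hypoxia genes 6 were higher in NP and none lower, with a median of 2.49 as deposited and 0.97 quantile normalized. Egln3, an oxygen-sensing prolyl hydroxylase that HIF itself induces, read 15.70, 14.95, 15.66, 15.38 and 14.53 in NP, against 11.00, 6.86, 9.52, 10.03 and 9.52 in AF (5.86 as deposited, 3.86 quantile normalized). Ndrg1, a hypoxia-induced gene, read 16.92, 15.28, 16.06, 13.43 and 14.50 in NP, against 9.93, 9.15, 7.41, 8.02 and 9.58 in AF (6.42 as deposited, 4.71 quantile normalized). Neither overlapped, and the NP values of Ndrg1 were lowest in animals 55 and 59. Adm, the peptide adrenomedullin, was 12.60 ± 0.69 in NP and 7.44 ± 1.78 in AF, and Bnip3, a mitophagy receptor, was 12.26 ± 0.95 in NP and 8.27 ± 0.57 in AF. Ero1a and Bhlhe40 were the other called members, and the HIF-1α gene Hif1a, named after its values were seen, was not called (0.54 as deposited, -1.43 quantile normalized). Bhlhe40 stands in both the hypoxia and the clock list.

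Of 7 carbonic anhydrases and acid-handling genes 2 were higher, Car2 (11.32 ± 2.28 in NP and 7.5 ± 1.32 in AF, with overlapping tissues) and Car1 (9.46 ± 0.65 in NP and 6.96 ± 0.80 in AF). Of 7 osmotic and water-channel genes 1 was higher, the osmotically regulated kinase Sgk1, which read 13.76, 13.00, 12.94, 12.68 and 12.62 in NP, against 9.12, 9.13, 6.66, 6.72 and 9.22 in AF (4.83 as deposited, 3.29 quantile normalized). Of 39 oxidative phosphorylation genes 3 were higher (Ndufa8, Atp5j and Ndufs5), with a median of 1.42 as deposited and 0.24 quantile normalized. Without animal 33 it was 6 of 39.

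Of 55 cytosolic ribosomal protein genes, all tested, 16 were higher in NP and none lower, with a median of 2.53 as deposited and 0.57 quantile normalized. Rpl28 was 16.89 ± 0.45 in NP and 12.42 ± 1.21 in AF, and Rps29 was 15.14 ± 0.52 in NP and 10.91 ± 0.69 in AF. Rpl37 was 14.28 ± 0.84 in NP and 10.21 ± 0.68 in AF, and Rpl19 was 16.23 ± 0.54 in NP and 12.43 ± 0.75 in AF. All 4 were without overlap, as were 870 of the 959 genes called. As deposited 50 of the 55 were higher, so this group's count moved with the scale more than those of the desmosome or AF genes. Of 28 proteasome genes 2 were higher (Psmd8 and Psma3), and of 21 secretory pathway and unfolded protein response genes 2 were higher, the transcription factor Creb3l2 (15.23 ± 0.78 in NP and 10.54 ± 1.19 in AF) and the chaperone cofactor Dnajb9. Of 22 vacuolar ATPase and lysosome genes 4 were higher, namely the proton pump subunits Atp6v0a1 (13.30 ± 0.55 in NP and 9.46 ± 0.71 in AF) and Atp6v1d, the membrane protein Lamp2 and the cholesterol transporter Npc1, and without animal 33 the count was 7, with Lamp2 no longer called (adjusted p = 0.057 after quantile normalization).

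Genes of AF and tendon were lower in NP. Of 11 tested 9 were lower and none higher, with a median of -4.32 as deposited and -5.58 quantile normalized, and without animal 33 the count was 8 lower and 1 higher, with a median of -2.84 and -4.16. Besides Chad, Comp and Dcn these were Col1a1, Col1a2, Col3a1, Egr1, Thbs2 and Thbs4. Fmod, which encodes fibromodulin, was high in both tissues and not called (19.14 ± 0.21 in NP and 18.20 ± 1.05 in AF, named after its values were seen). The tendon transcription factors Scx and Mkx were below background in all 10 arrays, and Tnmd, a late tendon marker, was above it in 1 AF array.

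Of 8 fibrillar and fibril-associated collagens tested 4 were lower and none higher (median -2.79 as deposited and -4.08 quantile normalized). Col1a2, a chain of type I collagen, read 10.65, 6.98, 7.03, 14.59 and 6.92 in NP, against 17.38, 19.93, 13.48, 15.41 and 14.66 in AF. NP of animal 55 was far above the other NP arrays and the tissues overlapped, with -6.94 ± 1.21 (SE, limma adjusted p = 0.00077) as deposited and -8.33 ± 1.07 (adjusted p = 0.00084) after quantile normalization. Col1a1 read 10.29, 9.46, 8.42, 12.13 and 8.19 in NP, against 14.39, 19.68, 10.86, 13.45 and 11.70 in AF, with the highest NP value again in animal 55, the highest AF value in animal 33 and overlapping tissues (-4.32 as deposited, -5.94 quantile normalized). Col2a1, the cartilage collagen, read 8.37, 7.49, 7.57, 5.39 and 6.64 in NP, against 14.43, 12.27, 9.65, 10.22 and 8.24 in AF (-3.87 as deposited, -5.16 quantile normalized), with a slight overlap. Col3a1 was below background in all NP arrays and at least 7.44-fold higher in AF than in NP, with AF of animal 33 at 15.58 and the other AF arrays at 8.06 to 9.43. Of 5 network and basement membrane collagens 2 were lower, the type VI chains Col6a3 (11.30 ± 0.49 in NP and 12.58 ± 0.67 in AF) and Col6a2 (12.53 ± 0.99 in NP and 13.92 ± 1.15 in AF).

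Small leucine-rich proteoglycans, which bind collagen fibrils and growth factors, were lower in NP in 4 of 7 tested (median -4.59 as deposited and -6.25 quantile normalized, the lowest of the lists with 5 or more tested genes). They were Chad, Dcn, Ecm2 and Bgn. Bgn, biglycan, read 11.92, 13.92, 14.50, 13.20 and 11.09 in NP, against 18.10, 18.85, 15.88, 17.92 and 16.83 in AF, without overlap and with -4.59 ± 0.62 (SE, limma adjusted p = 0.00022) as deposited and -6.25 ± 0.50 (adjusted p = 2.6e-05) after quantile normalization. Of 10 cartilage matrix genes 6 were lower and none higher: Cytl1, Clec3a, Prg4, Vcan, Cnmd and Cilp2 (median -3.82 as deposited and -4.95 quantile normalized). Acan, the gene of aggrecan, named after its values were seen, was near the ceiling in all arrays but AF of animal 33, at 17.29 (19.69 ± 0.11 in NP and 19.39 ± 1.17 in AF). It was not called (0.30 as deposited, 0.19 quantile normalized). Acan was higher in NP in 1 of 5 animals, animal 33, and without that animal the difference was -0.22 as deposited and -0.34 quantile normalized. The counts of both groups, small leucine-rich proteoglycans and cartilage matrix genes, were the same without animal 33.

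Other matrix groups were split. Of 12 elastic fibre and matricellular genes 2 were higher in NP, Ccn3 (13.07 ± 0.55 in NP and 9.05 ± 1.07 in AF) and Sparcl1 (14.64 ± 0.75 in NP and 11.26 ± 1.04 in AF), and 2 were lower, Sparc (17.88 ± 0.25 in NP and 19.92 ± 0.02 in AF) and Tgfbi (9.63 ± 0.94 in NP and 10.92 ± 0.55 in AF). Sparc and Sparcl1 encode related secreted proteins, and they differed in opposite directions, and since Sparc lay at the ceiling in AF, at 19.89 to 19.93, its measured difference of -2.04 is a bound. Of 14 collagen crosslinking and hydroxylation genes 2 were lower, Lox, lysyl oxidase (5.27 to 7.48 in NP and 7.35 to 15.48 in AF), and Pcolce2, an enhancer of procollagen processing (-1.87 as deposited, -3.72 quantile normalized). Of 8 matrix proteases and inhibitors 1 was higher, the inhibitor Timp3, which read 18.00, 15.61, 16.16, 13.66 and 14.15 in NP, against 12.71, 12.50, 7.07, 8.71 and 8.81 in AF (5.56 as deposited, 3.94 quantile normalized). Of 14 chondroitin and heparan sulfate synthesis genes 2 were higher, Chsy3, which extends chondroitin chains (2.72 as deposited, 1.70 quantile normalized), and Ext1, which extends heparan sulfate (3.23 as deposited, 1.42 quantile normalized), and 1 was lower, Csgalnact2, which starts chondroitin chains (-3.14 as deposited, -4.82 quantile normalized).

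Signalling lists held calls in both directions. In the TGF-beta and BMP list of 21 tested genes, Id4, an inhibitor of basic helix-loop-helix factors, was higher in NP (16.78 ± 0.75 in NP and 11.14 ± 2.40 in AF), and Grem1, a secreted BMP antagonist (8.53 ± 0.87 in NP and 12.74 ± 2.42 in AF), and the ligand Tgfb1 (7.42 ± 0.59 in NP and 10.10 ± 1.37 in AF) were lower. Of 13 Wnt genes 4 were higher, the ligand Wnt16, the receptors Lrp5 and Ror2 and the antagonist Sostdc1, and 2 were lower, the antagonists Frzb and Wif1. Wnt16 read 12.82, 10.66, 11.86, 10.43 and 10.21 in NP, against 7.73, 5.87, 7.54, 7.61 and 7.52 in AF. Wif1 read 6.88, 5.02, 5.02, 8.0 and 6.44 in NP, against 11.67, 11.06, 9.34, 11.87 and 9.67 in AF. Neither overlapped, with 3.94 as deposited, 2.49 quantile normalized for Wnt16 and -4.45 as deposited, -5.61 quantile normalized for Wif1. Without animal 33, 2 Wnt genes were higher and 2 lower, and Lrp5 missed the threshold after quantile normalization (adjusted p = 0.053).

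Of 7 FGF and EGF family genes 2 were higher, Fgf1 (12.78 ± 1.28 in NP and 7.69 ± 0.90 in AF) and the receptor Erbb2. Erbb2 was below background in all AF arrays and at least 2.05-fold higher in NP as deposited. This bound, 1.03 log2 units, was smaller than the median difference of all tested genes as deposited, 1.50. Of 13 guidance genes 4 were higher in NP and none lower: the ephrin receptor Epha4 (11.47 ± 0.66 in NP and 6.81 ± 1.29 in AF), the semaphorin receptor Plxna2, the ligand Sema3b and the ligand Slit3. The median of the guidance genes, 0.49 as deposited and -0.53 quantile normalized, was below that of all tested genes. Without animal 33 the guidance count was 4 higher and 1 lower, and Sema3b was not called (limma adjusted p = 0.075 after quantile normalization).

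Of 13 core clock genes 2 were higher, Per1 (13.96 ± 1.65 in NP and 10.27 ± 0.93 in AF) and Bhlhe40 (16.92 ± 1.45 in NP and 13.70 ± 0.45 in AF), and none lower. Of 18 immediate early genes 4 were lower in NP, Egr1, Fosb, Nr4a1 and Nr4a2, and 1 was higher, Klf6 (14.64 ± 0.82 in NP and 10.14 ± 1.70 in AF). Nr4a2, an orphan nuclear receptor, was below background in all NP arrays and at least 7.53-fold higher in AF than in NP. Fosb (6.88 to 9.05 in NP and 7.47 to 10.79 in AF) and Nr4a1 (6.58 to 9.08 in NP and 7.53 to 10.43 in AF) overlapped between tissues, and of the NP arrays that of animal 59 was the highest for both. Of 7 pyrophosphate, phosphate and mineral genes tested 1 was higher, Galnt3, whose enzyme protects the phosphate hormone FGF23 from cleavage (12.76 ± 0.59 in NP and 7.47 ± 1.12 in AF, 5.29 as deposited, 3.74 quantile normalized). Of 3 osteoblast and hypertrophic chondrocyte genes tested 1 was lower, Ibsp, bone sialoprotein, with overlapping tissues and its highest value, 19.75, in AF of animal 33 (5.40 to 11.93 in NP and 9.05 to 19.75 in AF). Of 7 interferon and antigen presentation genes 1 was higher, Ifit2, at least 3.8-fold as deposited. Of 3 proliferation genes 1 was lower, the replication helicase subunit Mcm6 (-1.29 as deposited, -2.33 quantile normalized). Neither of the 2 complement genes tested, C1s1 and C1ra, was called on both scales. Without animal 33 the counts of higher genes were 2 and of lower genes 3 among the immediate early genes, and 3 integrin and focal adhesion genes, 4 proteasome genes and 4 secretory pathway genes were higher.

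Markers of other cell types were above background in part of each list. Of 23 fibroblast genes 8 were above background in any NP array, 13 in AF of animal 33 and 8 in any other AF array. The counts, in the same order, were 6, 11 and 4 of 20 macrophage and osteoclast genes, 4, 4 and 2 of 12 smooth muscle and pericyte genes, 3, 7 and 1 of 12 adipocyte genes and 2, 2 and 2 of 12 Schwann cell and neuron genes. For 6 red cell genes they were 1, 0 and 1, for 15 epidermis genes 1, 0 and 2, for 14 neutrophil and marrow genes 2, 0 and 1 and for 11 lymphocyte genes 1, 2 and 1. The part of these cell types in the results was not tested. Of 16 endothelial genes measured, 2 were above background in any NP array, 9 in AF of animal 33 and 0 in any other AF array. Flt1, a VEGF receptor, was the single tested one and higher in NP (9.98 ± 1.09 in NP and 6.47 ± 0.47 in AF, 3.50 as deposited, 2.52 quantile normalized). Of 12 smooth muscle and pericyte genes 2 were tested: Acta2, smooth muscle actin, was higher in NP (11.40 ± 1.0 in NP and 6.83 ± 0.84 in AF), and the pericyte proteoglycan gene Cspg4, named after its values were seen, was not called (0.74 as deposited, -0.58 quantile normalized). Of 12 Schwann cell and neuron genes 2 were tested: Pmp22, a myelin protein that fibroblasts also make, was higher (16.38 ± 1.13 in NP and 12.42 ± 1.13 in AF), and S100b, also named after its values were seen, was not called (1.62 as deposited, 0.49 quantile normalized). Of 4 fibroblast genes 2 were lower in NP, Gsn (-2.95 as deposited, -4.49 quantile normalized) and Ly6c1 (-2.16 as deposited, -3.23 quantile normalized), and the T-cell gene Cd4 was lower (7.84 ± 0.63 in NP and 9.01 ± 0.87 in AF), the single tested gene of 11 lymphocyte genes. The mean level of the lymphocyte genes was 5.12 to 5.53 in NP and 5.28 to 5.82 in AF. Tested genes of skeletal muscle (Tnnt1, Tnnc1 and Tpm2), red cells (Slc4a1), epidermis (Sbsn) and macrophages and osteoclasts (Csf1r and Ctsk) were not called on both scales. Ctsk, the collagenase of osteoclasts, read 8.53 to 10.26 in NP, 17.75 in AF of animal 33 and 6.20 to 8.18 in the other AF arrays, and without that animal it was called higher in NP (3.06 as deposited). Neutrophil and marrow genes, 14 measured, had no tested member.

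The same contrast was read in the 5 ank mice, whose arrays were not used above. Over the same 5451 genes, 195 were higher in ank NP than in ank AF (3.58%) and 79 lower (1.45%). With a background filter on the ank arrays themselves, 159 of 5153 genes were higher and 83 lower, and this count rested on single animals. Leaving out 1 ank animal gave 89 higher and 74 lower without animal 31, 15 and 56 without 34, 1 and 45 without 39, 41 and 72 without 41 and 300 and 97 without 48. Of the genes called in WT, 154 of the 874 higher and 58 of the 85 lower were also called in ank, and 0 were called the other way, with all 5 ank animals in the fit. The ank difference had the WT sign on both scales for 866 of the 874 and for all 85, and for 4149 of the 5451 tested genes. Chad differed by -11.00 in ank and -12.02 in WT as deposited, and Krt19 by 4.23 in ank and 7.72 in WT. The median of the desmosome genes was 2.87 in ank and 4.84 in WT, with 2 members called in ank, and that of the small leucine-rich proteoglycans -4.45 in ank and -4.59 in WT, with 4 called in ank. The difference between genotypes in the tissue contrast was tested as an interaction in limma. No gene passed (0 of 5451, 0.0%), and the lowest adjusted p was 0.80 as deposited and 0.97 after quantile normalization. An unadjusted p under 0.05 was found for 289 and 215 of 5451 genes, against 272.55 expected if no gene differed. The lower number of calls in ank is thus not shown to be a difference between the genotypes.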

How the data were processed

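RNA of NP and AF of 5 WT mice was measured on Clariom S mouse arrays. The deposited values were log2 signals that the authors made with the sst-rma method in Transcriptome Analysis Console, and they end at 19.93. The highest value of a single WT array lay between 19.63 and 19.93. Of 28846 probe sets, 19572 had 1 gene symbol in the platform annotation, giving 19505 genes; for 55 genes with several probe sets the one with the highest mean was used. No scanner signal was used, so depth is replaced by the number of arrays, 5 per tissue, as the limit of precision.

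The background of an array was the 95th percentile of 1425 olfactory, vomeronasal and trace amine receptor genes. The 5451 genes above it in at least 5 of 10 arrays were tested with limma (3.58.1, R 4.3.3, lmFit and eBayes) with the animal as a block, as deposited and after quantile normalization. A call needed a Benjamini-Hochberg adjusted p under 0.05 on both scales with the same sign. The 2 tissues of a number come from the same animal. Deviations of same-animal arrays from the tissue means correlated by -0.172 to 0.238 (median 0.114). Those of different animals correlated by -0.208 to 0.173 (median -0.0368), so the 2 ranges largely overlapped. The code was tested on simulated data with known differences. The limma p-values rest on the spread of a gene among these 5 animals, moderated by the spread of all tested genes. With 1 pooled array per tissue and animal, that spread includes differences of dissection and array. For a gene below background in all arrays of 1 tissue, the fold is a bound with the higher of the background and the measured value standing in for that tissue. All such bounds are on the deposited scale only, where the median tested gene was 1.50 log2 units higher in NP, and this array-wide difference was not removed from them. Figures and summaries used Python 3.11.15, numpy 2.4.6, pandas 2.3.3, scipy 1.17.1 and matplotlib 3.10.9.

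The genes named were the 7 markers, the 12 largest called differences per direction without overlap, up to 4 called members per list with the smallest p (2 with the smallest p where none was called) and Acta1; other genes given with values were chosen after their values were seen. The samples compared and the gene lists were chosen with earlier results of these data known. Alternatives were centring on the median, other background limits and filters, no animal block, a mean-variance trend with robust fitting, array weights, the mean of probe sets, leaving out each animal, the study's thresholds with limma and with the methods' t-test, and, chosen after seeing the data, leaving out animals 33 and 53 together. The detection-above-background filter of the study was not used here.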

Additional observations from a re-analysis of the deposited data

Results flagged for a closer look

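In groups of 5 arrays, the gap of an array to the nearest other array was divided by the range of all 5. An array was picked out where this ratio exceeded Dixon's 95% critical value (0.71). Chance picks about 1 in 20 groups, and 26 of 250 groups examined had such an array, 11 of them in AF of animal 33 and 5 in NP of animal 33.

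AF of animal 33 was high for muscle, bone and macrophage genes: Acta1 at 18.23 (others 5.77 to 8.89), Tnnt1 at 12.41 (7.42 to 8.41), Col3a1 at 15.58 (8.06 to 9.43), Ctsk at 17.75 (6.20 to 8.18), Csf1r at 11.85 (5.91 to 7.58) and Tgfb1 at 12.49 (9.29 to 9.99). It was low for Krt19 at 4.24 (10.46 to 12.68), Slc15a5 at 5.27 (10.60 to 12.78), Wnt16 at 5.87 (7.52 to 7.73) and Car3 at 19.75 (19.89 to 19.93), and it had 6362 genes above background (2831 to 3811).

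NP of animal 33 was low for Krt19 at 17.55 (17.94 to 18.08), Frzb at 5.90 (8.23 to 8.67) and Ndufs5 at 7.31 (8.22 to 8.53), and high for Acta1 at 6.94 (5.16 to 5.45), below background, and Ccn3 at 14.04 (12.67 to 12.99). NP of animal 32 was high for Prg4 at 10.84 (5.91 to 7.29). NP of animal 53 was high for Tgfbi at 11.25 (8.91 to 9.46) and Epha4 at 12.63 (11.06 to 11.34), NP of animal 55 low for Csgalnact2 at 7.91 (9.66 to 10.36), and NP of animal 59 high for Nr4a1 at 9.08 (6.58 to 7.06).

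Among the other AF arrays, that of animal 53 was low for Dcn at 13.64 (18.99 to 19.93), that of animal 32 high for Chsy3 at 7.79 (6.34 to 6.71) and Mcm6 at 9.78 (7.59 to 8.22), that of animal 59 high for Pfkfb3 at 11.29 (8.72 to 9.06), and that of animal 55 low for C1s1 at 5.53 (6.54 to 6.93).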

How the results depend on the processing

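The counts of genes called moved with the scale and the animals left out. Against 959 called on both scales (874 higher and 85 lower in NP), the deposited values alone gave 3548 (3463 higher), centring 2668 (2550 higher), and quantile normalization alone 399 lower. Without a background filter 1649 were called, 367 of them lower, and with the 99th percentile 560 (511 higher, 49 lower). Array weights gave 172 lower. Leaving out 1 animal gave 322 to 1319 called, 272 to 1165 higher and 50 to 154 lower, with the fewest without animal 32 and the most without animal 33; without animals 33 and 53 together, chosen after seeing the data, 173 were lower. Arrays with bacterial control signal alone gave 525 (458 higher) and those without it 125 (67 higher). The study's thresholds with limma gave 1489 (1394 higher), and the methods' t-test gave 1208 higher and 84 lower at those thresholds and 714 and 78 after Benjamini-Hochberg adjustment. Without the animal as a replicate block 966 genes were higher and 89 lower, and quantile normalization with no replicate block gave 1442 (476 lower). In ank the deposited values alone gave 2794, and leaving out 1 animal 46 to 397, with 1 higher in NP without animal 39 and 300 without animal 48. The cause of these shifts was not tested. Of the 111 named genes called, 66 were called in every fit without 1 animal, and 0 changed sign in any setting. The limits are 5 animals, 1 pooled sample per tissue and animal, and an array-wide difference that cannot be told apart from the tissues. Another is a ceiling, 19.63 to 19.93 by array, that genes such as Acan, Car3, Cd24a, Dcn and Sparc reach or approach. A further limit is RNA quality, since the study's methods give an RNA integrity number of around 5 without values per sample. Its part in the results was not tested.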

Other observations

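Some genes with a higher mean in AF were above background in fewer than 5 of the 10 arrays and were not tested. The following were chosen after their values were seen. Thbs1, which encodes the matricellular protein thrombospondin 1, was below background in all NP arrays and above it in 4 AF arrays (5.02 ± 0.95 in NP and 11.02 ± 2.45 in AF, SD, n = 5 each). Cilp, a protein of the cartilage intermediate layer, was above it in 0 NP and 4 AF arrays (5.75 ± 0.24 in NP and 8.57 ± 1.32 in AF), and Lum, the proteoglycan lumican, in 0 NP and 3 AF arrays (5.84 ± 0.63 in NP and 10.05 ± 4.69 in AF). Noto, the notochord homeobox gene, had 7.33 ± 0.35 in NP and 6.51 ± 0.35 in AF, and Shh had 7.33 ± 0.38 in NP and 6.27 ± 0.62 in AF, both close to background.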
